A study of Mus musculus with 16 samples.

Results

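The genes described are Ctnnb1, which encodes beta-catenin, with 3 DNA-binding partners of beta-catenin (Lef1, Tcf7 and Tcf7l2) and 6 genes widely used as feedback or target genes of the pathway (Axin2, Nkd1, Rnf43, Znrf3, Ccnd1 and Apcdd1). They were chosen by symbol, 10 genes looked up among the 17655 symbols of each file. Values were read for 9 of them, and the expression of Lef1 was not analysed here. Of the 9, 5 had a mean normalised read count of at least 10 and were tested between the groups (Ctnnb1, Axin2, Nkd1, Znrf3 and Apcdd1).

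RNA was sequenced from preSC, mouse cells at a stage before small cell lung cancer that the labels give as Chga-positive neuroendocrine cells of the lung, with Rb1 null, Trp53 null and Rbl2 heterozygous null in all samples. One group carried a lentiviral empty control ("empty") and the other lentiviral-Wnt5a ("Wnt5a"), with 8 deposited samples each. Doxycycline (1 µg/mL, 48 hours) was given to both groups alike and is not compared. The reads of samples 1 to 4 of a group differed by no more than sampling noise, as did those of samples 5 to 8, so each set of 4 was averaged and counted as 1 library. The comparison therefore rests on 2 libraries per group, called A (samples 1 to 4) and B (samples 5 to 8). Nothing in the labels says whether A and B came from separate cultures, so p-values measure only the spread between these libraries.

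Beta-catenin joins cadherins to the cytoskeleton at cell junctions and also carries the canonical Wnt signal. Without a signal, a destruction complex built on Axin and Apc phosphorylates beta-catenin and marks it for degradation, so its activity is set mainly at the protein level and not by its mRNA. Stabilised beta-catenin enters the nucleus, binds TCF/LEF factors and switches on targets, several of which feed back on the pathway. Wnt5a is known mainly as a ligand of non-canonical Wnt signalling, and in some cell types it opposes the canonical branch.

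Recovered reads totalled 7526676 to 8181010 per empty sample and 8743431 to 8859862 per Wnt5a sample. Wnt5a itself averaged 122 ± 31.4 (empty) and 1279 ± 325 (Wnt5a) in normalised read count (mean ± SD of 2 libraries, the form used throughout). Of the genes altered in all samples, Rb1 averaged 3223 and 3193, Trp53 67.4 and 90.9 and Rbl2 321 and 351 in the same order. A total per gene does not show which exons were read, so these values do not check the alleles. Each of 7 neuroendocrine markers was above the minimum for testing, and none of them passed limma's test at an adjusted p of 0.05 (Benjamini-Hochberg). With libraries A and B as a replicate block (described with the feedback genes), 3 of the 7 passed, all lower in Wnt5a cells. They were Chga (log2 difference -0.25, limma adjusted p = 0.013), Calca (-0.31, adjusted p = 0.0060) and Uchl1 (-0.20, adjusted p = 0.021). Their summed normalised read count was 50122 to 51798 in the empty samples and 46800 to 50091 in the Wnt5a samples. Among markers of other cell types, those of fibroblasts summed to 327 to 636 in empty and 234 to 263 in Wnt5a samples, nearly all of it Dcn (log2 difference -0.89, limma adjusted p = 0.131, or 0.014 with the block), while Col1a1 and Col3a1 were at or near 0. Leukocyte, endothelial and other lung epithelial markers summed to at most 64.0 in any sample. The part of these marker levels in the results below was not tested. The median log2 difference (Wnt5a minus empty) of tested genes was -0.17 on chromosome 1, 0.17 on chromosome 11 and 0.36 on chromosome 19, and between -0.02 and 0.02 on each other autosome and X. Of the 9 genes read here, 4 lie on chromosome 11 (Axin2, Tcf7, Rnf43 and Znrf3) and 1 on chromosome 19 (Tcf7l2).

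Ctnnb1 stood far above the other genes of the group, and the 9 genes spanned a wide range of expression. To compare genes, the normalised read count was divided by the length of the longest annotated transcript. On this scale Ctnnb1 was at 3522 per kilobase over the 4 libraries, which ranks 49 of 17453 genes, and 37.4 times the next gene. Next came Nkd1 at 94.2 per kilobase, Znrf3 at 74.9, Axin2 at 58.0 and Apcdd1 at 15.8. Their library ranges did not overlap from one gene to the next in that order. Tcf7 (2.22 per kilobase) and Ccnd1 (1.79) followed with ranges that overlapped each other. Tcf7l2 and Rnf43 closed the order at 0.033 and 0.032 per kilobase, and these also overlapped. The order depends on the lengths used. Without division by length, Znrf3 averaged 473 over the 16 samples and Nkd1 384. Which transcripts the cells made was not tested.

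**Figure D1:**
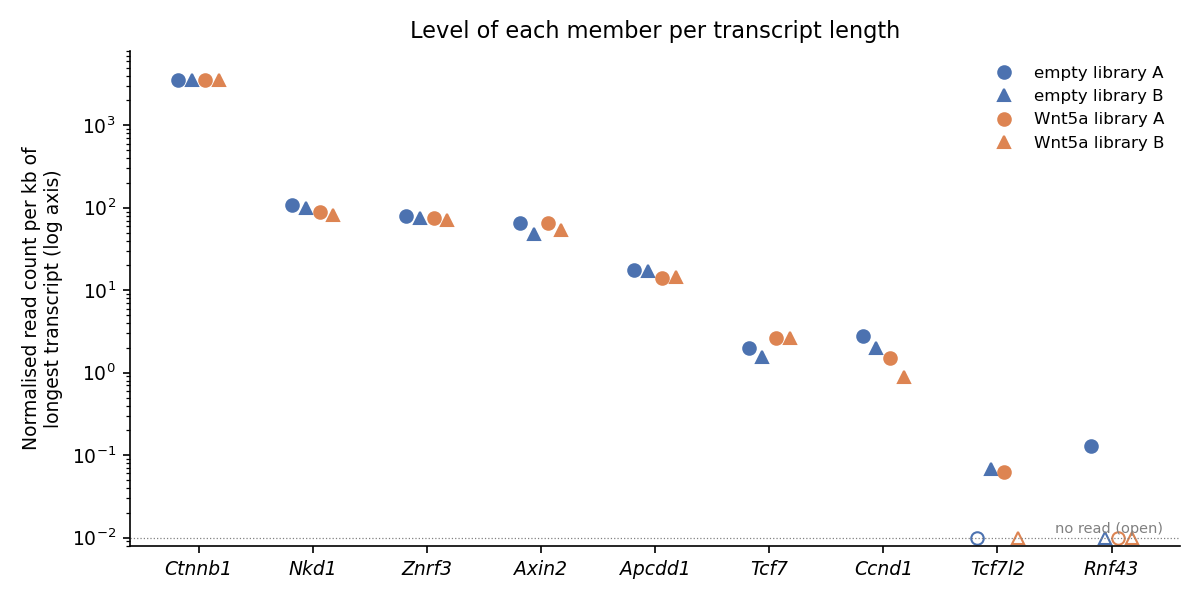
Level of each gene per kilobase of its longest transcript (log axis) in the 4 libraries, in order of the mean; circles are A libraries, triangles B libraries, and open symbols at the dotted line mark libraries without a read. Ctnnb1 lies near 3522, the feedback genes Nkd1, Znrf3, Axin2 and Apcdd1 between 14.1 and 107, and Tcf7l2 and Rnf43 at or near 0.

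Ctnnb1 (chromosome 9) was almost the same in every sample. Its normalised read count had a lowest value of 12551, a median of 12661 and a highest of 12850 in the 8 empty samples, and 12705, 12830 and 12961 in the 8 Wnt5a samples. The sample ranges overlapped, while the libraries did not, as for 44.2% of all tested genes. Library means were 12684 ± 8.54 (empty) and 12835 ± 24.5 (Wnt5a), each library resting on at least 46019 reads. The log2 contrast (Wnt5a minus empty) came to 0.02 with an SE of 0.08 (adjusted p = 0.954 in limma), and its 95% interval of -0.18 to 0.22 corresponds to 0.880 to 1.16 times the empty level. The sign of so small a difference turned negative after median centring (-0.0020) and quantile normalization (-0.0084). With a coefficient of variation of 0.694% over the 4 libraries, Ctnnb1 varied least of the 5 tested genes.

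Of the TCF partners, neither Tcf7 nor Tcf7l2 reached the minimum for testing. Tcf7 encodes TCF1, a factor best known from T cells. It had 1 to 14 reads in each sample, 33 over the empty and 56 over the Wnt5a samples. Empty libraries A and B had normalised read counts of 4.97 and 3.83, and Wnt5a libraries A and B had 6.58 and 6.56. Here too the libraries of the groups did not overlap, but the samples did. Libraries lay apart in either direction for 44.2% of the genes above the minimum. Relative to total reads the Wnt5a rate was 1.51 times the empty rate, with an exact binomial 95% interval of 0.967 to 2.40 that covers counting error only. A limma fit without the minimum put its log2 contrast at 0.50 (adjusted p = 0.416).

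Tcf7l2, which encodes TCF4, the main TCF of intestinal epithelium, had 1 read in the 8 empty samples and 1 read in the 8 Wnt5a samples. With both groups under the floor of 3 reads no fold is given, and at this depth no level above the floor was detectable in either. Tcf7l1, which encodes TCF3, a member of the family that acts largely as a repressor, was the one other TCF on the pathway lists. It averaged 238 ± 29.3 (empty) and 201 ± 11.7 (Wnt5a), which in the empty libraries is 78.2 per kilobase against 1.78 for Tcf7. Its log2 contrast of -0.24 had an adjusted p of 0.394 in limma, or 0.065 under the replicate block described next.

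Library A of one group shares its sample numbers with library A of the other, and A minus B differences correlated between the groups across genes (Pearson r = 0.44). The model was therefore also fitted with library A or B as a block. No tested member passed the threshold in the fit without the block, where 2.06% of all 12357 tested genes did. At an unadjusted limma p under 0.05 there were 2 of 5, Nkd1 and Apcdd1, both lower in Wnt5a cells, beside 16.1% of all tested genes in either direction and 7.45% lower. In edgeR 0 of the 5 passed the adjusted threshold and 2 had an unadjusted p under 0.05; in DESeq2 these counts were 0 and 1. With the block these 2 genes passed over all genes, both lower in Wnt5a cells, beside 17.0% of all tested genes in either direction and 8.27% lower. Counting all 16 samples separately called both as well, where 35.4% of all genes were called. That fit takes the 4 samples of a library as replicates, although they differ by no more than sampling noise. The neuroendocrine markers Chga, Calca and Uchl1 and the fibroblast marker Dcn, given above, were lower under the block too, and their part in these calls was not tested. The block fit keeps 1 residual degree of freedom per gene.

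Nkd1 (chromosome 8) encodes naked cuticle 1, a cytoplasmic inhibitor that binds Dishevelled and is itself a Wnt target. Its normalised read count had a lowest value of 375.5, a median of 432 and a highest of 449 in the empty samples, and 314, 354 and 368 in the Wnt5a samples. All 8 Wnt5a samples lay below all 8 empty samples, a pattern shown by 5.95% of all tested genes, or 12.4% with either direction counted. Library means were 423 ± 18.9 (empty) and 346 ± 17.2 (Wnt5a). The log2 contrast of -0.29 (SE 0.09) had an unadjusted p of 0.013 in limma and an adjusted p of 0.164, which the block brought to 0.015. It equals 0.818 times the empty level with a 95% interval of 0.709 to 0.944. Taken by pair, it came to -0.29 for A and -0.30 for B. In bulk RNA, fewer cells that express a gene and less of its RNA per cell cannot be told apart.

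Apcdd1 (chromosome 18) encodes a membrane glycoprotein that restrains Wnt signalling at the cell surface. Normalised read counts had a lowest value of 163, a median of 191 and a highest of 210 in the empty samples, and 136, 152 and 179 in the Wnt5a samples. The sample ranges overlapped, while the libraries did not. Their means were 189 ± 1.29 (empty) and 156 ± 3.91 (Wnt5a), and libraries lay apart in this direction for 21.5% of all tested genes. The log2 contrast of -0.28 (SE 0.10) had an unadjusted p of 0.023 in limma and an adjusted p of 0.214, which the block brought to 0.045. It equals 0.824 times the empty level with a 95% interval of 0.704 to 0.965. With chromosome medians subtracted as well, the blocked p was 0.072 for Apcdd1 and 0.021 for Nkd1 (limma, adjusted). Nkd1 and Apcdd1 were thus lower by nearly the same proportion.

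Axin2 (chromosome 11) encodes a scaffold of the destruction complex and is the most widely used readout of canonical Wnt activity. In normalised read count it had a lowest value of 186, a median of 227 and a highest of 298 in the empty samples, and 222, 250.5 and 299 in the Wnt5a samples, so the groups overlapped broadly. Library means were 239 ± 51.0 (empty) and 254 ± 36.7 (Wnt5a). The log2 contrast was 0.09 (SE 0.17), turning to -0.08 once the median of chromosome 11 was subtracted. Its adjusted p in limma was 0.862, or 0.406 under the block. The 95% interval of -0.30 to 0.49, or 0.810 to 1.41 times the empty level, is the widest of the 5 tested genes.

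The larger contrast in Axin2 was between libraries of one group. Library A stood above library B in both groups, at 275.5 against 203 in empty and 280.2 against 228 in Wnt5a cells. These A minus B differences, 0.44 and 0.29 on the log2 scale, exceed the difference between the groups. Differences at least this large in both groups were found for 1.76% of tested genes. In the other tested members the A minus B difference lay between -0.05 and 0.11. Leaving out empty library B turned the Axin2 difference to -0.12 and leaving out Wnt5a library A turned it to -0.05, while leaving out empty library A gave 0.31 and leaving out Wnt5a library B gave 0.24. Notum, a secreted Wnt-inactivating enzyme and target on the pathway lists, showed the same order of libraries, at 388 (A) and 290 (B) in empty and 381 (A) and 264 (B) in Wnt5a cells. Notum was singled out after its values were seen. Differences at least as large as those of Notum in both groups were found for 0.486% of tested genes. Across all 12357 tested genes, the A minus B differences of the groups correlated (Pearson r = 0.44). Chga, a gene outside the pathway lists, also had this order. It was at 4370 (A) and 3716 (B) in empty and 3800 (A) and 3007 (B) in Wnt5a cells, log2 differences of 0.23 and 0.34. The cause of the library difference was not tested.

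Znrf3 and Rnf43 encode related transmembrane ubiquitin ligases that remove Frizzled receptors from the cell surface. Znrf3 (chromosome 11) was well expressed, with a lowest value of 457, a median of 482 and a highest of 532 in the empty samples, and 421.5, 467 and 504.5 in the Wnt5a samples. The groups overlapped. Library means were 484 ± 17.1 (empty) and 461 ± 25.2 (Wnt5a). The log2 contrast of -0.07 (SE 0.08) had a 95% interval of -0.27 to 0.13 and an adjusted p of 0.777 in limma, or 0.423 under the block. Less the chromosome 11 median it was -0.24 (limma adjusted p of 0.323, or 0.037 under the block). Rnf43, by contrast, had 2 reads in the 8 empty samples and 0 in the 8 Wnt5a samples, all within the floor of 3 reads. Of this ligase pair, reads above the floor were thus found for Znrf3 alone.

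**Figure D2:**
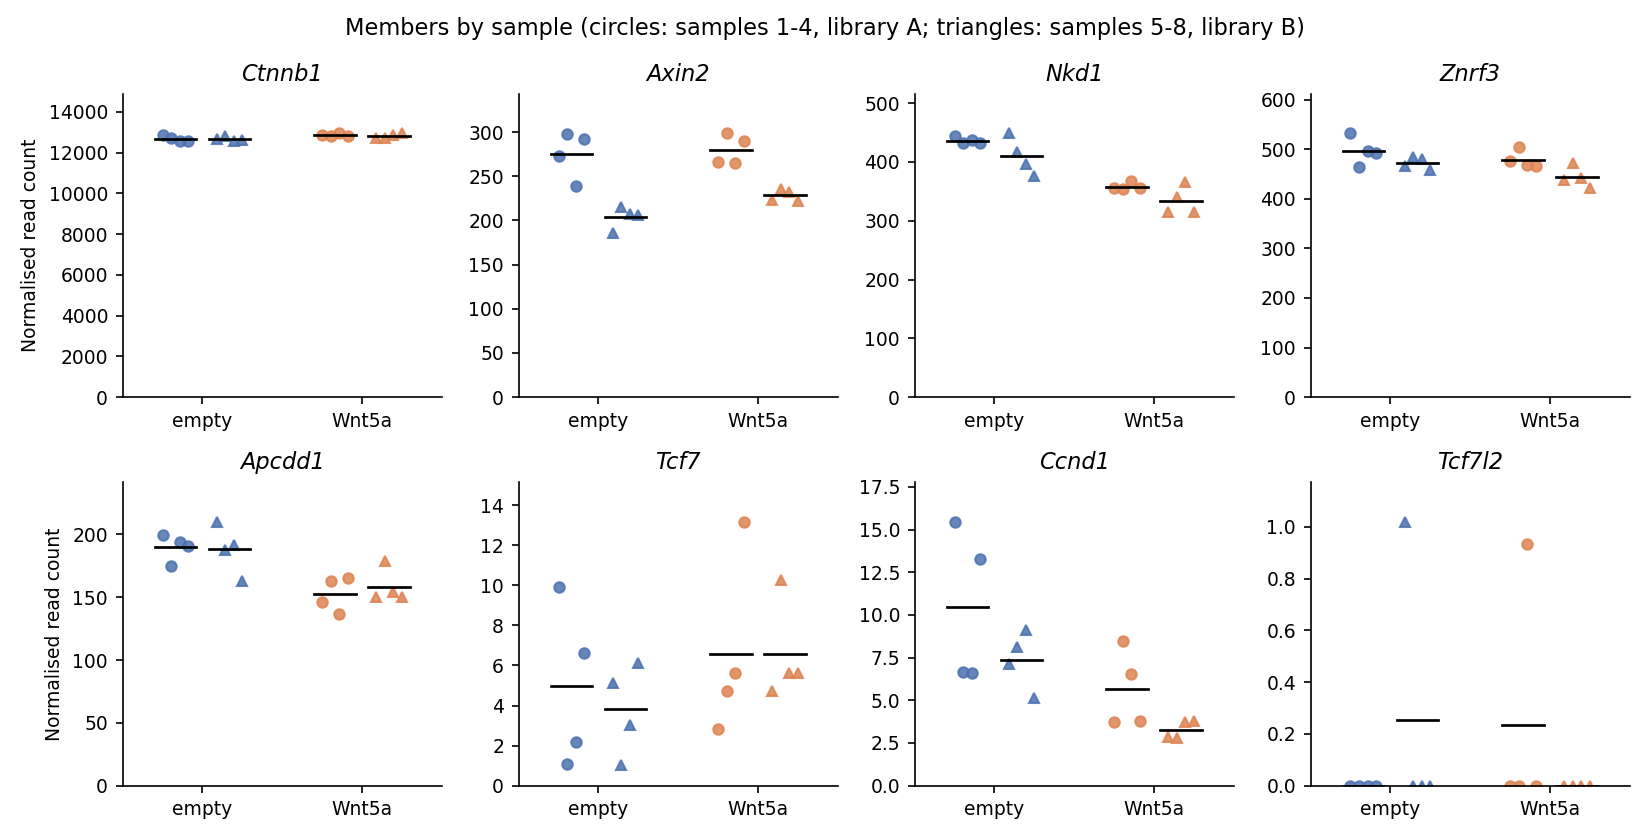
Normalised read count of 8 genes in each of the 16 samples, with circles for samples 1 to 4 (library A), triangles for samples 5 to 8 (library B) and lines at the library means; each panel has its own axis from 0. Nkd1 is lower in every Wnt5a sample, Axin2 differs more between A and B than between groups, and Tcf7l2 has 1 read in 1 sample of each group.

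Ccnd1 (chromosome 7) encodes cyclin D1, which with its kinases phosphorylates the retinoblastoma protein and is often cited as a target of beta-catenin. It was barely expressed in these Rb1 null cells, at 3 to 14 reads per sample. Empty libraries A and B had normalised read counts of 10.5 and 7.38, and Wnt5a libraries A and B had 5.64 and 3.28. The libraries did not overlap, but the samples did. Libraries lay apart in this direction for 21.5% of the genes above the minimum, and in either direction for 44.2%. With 67 reads in the empty and 38 in the Wnt5a samples, the Wnt5a rate relative to total reads was 0.506 times the empty rate, with an exact binomial 95% interval of 0.331 to 0.764 for counting error only. Its mean fell short of the minimum, and in the limma fit without that filter the log2 contrast of -0.88 (SE 0.32) had an unadjusted p of 0.043 and an adjusted p of 0.337, where 14.1% of genes had an unadjusted p under 0.05.

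**Figure D3:**
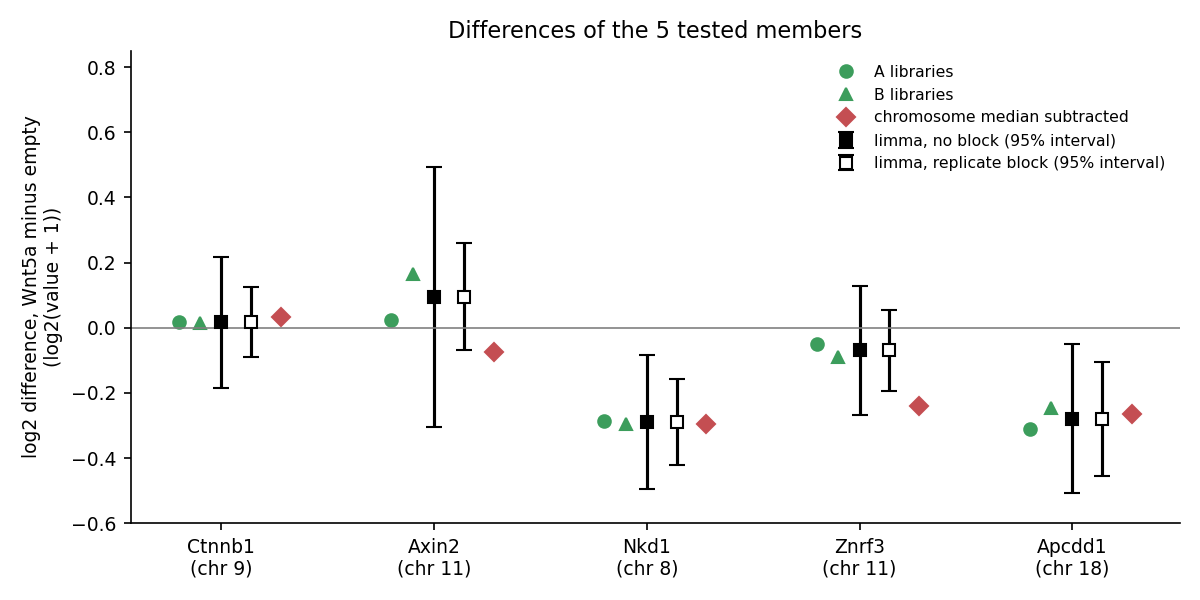
Log2 difference (Wnt5a minus empty) of the 5 tested genes in the A libraries, in the B libraries, in the limma fits without and with the replicate block (squares with 95% intervals) and after the median of the gene's chromosome was subtracted (diamonds). Nkd1 and Apcdd1 lie near -0.29 and -0.28 in both fits; Ctnnb1 lies near 0, and the diamonds of Axin2 and Znrf3 on chromosome 11 lie 0.17 lower than their squares.

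Permuting the 4 libraries exactly (two-sided), Ctnnb1, Nkd1 and Apcdd1 each gave p = 0.333, the smallest that 2 against 2 allows, and Axin2 and Znrf3 gave p = 0.667. The smallest p follows wherever the libraries of the groups do not overlap, as for 44.2% of all tested genes. It therefore adds nothing to that separation.

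The promoters of Axin2 and Nkd1 are shown because these feedback genes differed in pattern, Axin2 by library and Nkd1 by group. Each is the 250 bases before the start site in RefSeq on GRCm38.p6, plus strand, with capitals for GGGCGG or its reverse complement CCGCCC, the GC box bound by SP family factors. The build behind the deposited files is not given in the sources used here.
Axin2 (chr11:108920099-108920348): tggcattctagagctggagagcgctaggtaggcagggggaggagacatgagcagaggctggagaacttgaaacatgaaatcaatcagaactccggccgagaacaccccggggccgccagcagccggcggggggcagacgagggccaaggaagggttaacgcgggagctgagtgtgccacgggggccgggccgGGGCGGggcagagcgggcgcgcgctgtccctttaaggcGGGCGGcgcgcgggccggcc
Nkd1 (chr8:88527383-88527632): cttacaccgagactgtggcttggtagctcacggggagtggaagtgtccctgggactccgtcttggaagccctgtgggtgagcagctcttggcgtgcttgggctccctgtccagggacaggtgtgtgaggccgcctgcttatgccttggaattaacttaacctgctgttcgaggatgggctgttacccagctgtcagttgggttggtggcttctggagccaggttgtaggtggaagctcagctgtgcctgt
The Axin2 window was 69.2% G or C and held 2 GC boxes, and the Nkd1 window was 58.4% G or C and held 0. A GC box on either strand was found in 32.7% of all 32851 promoter windows of this length. The TCF/LEF core CTTTGAT, searched on both strands, was in 3.21% of all windows and in neither of these. The shorter CTTTG was in 48.6% of all windows and also in neither. Windows were matched for 7 of the 10 genes (Axin2, Ctnnb1, Lef1, Nkd1, Rnf43, Tcf7 and Tcf7l2), 14 windows in all. Of these 14 windows, 0 held CTTTGAT, 6 held CTTTG and 9 held a GC box. Sites outside the windows were not searched, and the part of these motifs in either pattern was not tested.

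Other genes of the pathway were read from 5 lists ordered by role, with 64 genes tested in all. Lgr5, Wif1 and Notum stand on both the receptor and the target list. In the fit without the block 1 of the 64 passed limma's adjusted threshold, and with the block 9 did, of which 5 were higher and 4 lower in Wnt5a cells. Over all tested genes these shares were 2.06% and 17.0%, and 9 of 64 is 14.1%, so the blocked share of the pathway genes was no higher than that of all genes. Over the 64 genes the log2 contrasts had a median of -0.02, beside 0.0026 over all tested genes. Of those 9 genes, 7 lie on chromosomes 1, 11 or 19, which hold 20.3% of the 64 pathway genes and 17.2% of all tested genes. All 5 higher genes lie on chromosome 11 or 19. Among all genes called with the block, 44.6% lie on those 3 chromosomes. Once chromosome medians were subtracted, 0 of the 64 genes passed without the block, with 8 at an unadjusted limma p under 0.05. With the block 6 passed (Lgr6, Kremen1, Btrc, Crebbp, Ctnna2 and Jup), all lower after the subtraction. Over all tested genes the corresponding shares were 1.67%, 11.5% and 9.47%, with 5.80% called lower. The total counts of pathway genes were thus near the background. The 6 of 64 called lower exceed that share of lower calls, which was not tested. Before the subtraction Btrc (chromosome 19) averaged 326 (empty) and 327 (Wnt5a), a log2 contrast of 0.01. Kremen1 and Jup (chromosome 11) differed by -0.23 and -0.05, and neither they nor Btrc passed with the block (limma adjusted p of 0.128 to 0.939).

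At the level of receptors and secreted regulators, 11 of 25 genes were tested, with a median of 0.11 and none past the threshold without the block. The co-receptor Lrp5 (chromosome 19) averaged 466 ± 52.9 (empty) and 603 ± 9.39 (Wnt5a), with a limma adjusted p of 0.127, or 0.0098 under the block. Less its chromosome's median, the log2 contrast of 0.38 came to 0.02. Lgr6 (chromosome 1), a receptor for R-spondins, averaged 63.1 ± 12.5 (empty) and 34.1 ± 13.2 (Wnt5a), with a limma adjusted p of 0.176, or 0.0085 under the block. Kremen1, a co-receptor of Dickkopf inhibitors, and Notum had the highest levels per kilobase, at log2 differences of -0.23 and -0.08 (limma adjusted p of 0.404 and 0.909).

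In the cytoplasmic relay and destruction complex all 21 genes were tested, with a median of 0.0088. The tankyrase gene Tnks2 (chromosome 19), whose product marks Axin for degradation, rose from 869 ± 27.1 in empty cells to 1209 ± 4.36. Its log2 contrast was 0.48 (SE 0.07) with a limma adjusted p of 0.027. It did not pass without the trend in eBayes, nor without either Wnt5a library, and less the median of chromosome 19 its contrast was 0.12 (limma adjusted p of 0.624). The Dishevelled gene Dvl2, the kinase Csnk1d and the phosphatase subunit Ppp2ca, all on chromosome 11, had log2 differences of 0.23 to 0.26 and passed with the block only (limma adjusted p of 0.0088 to 0.028). Less the median of chromosome 11 these came to 0.09 for Dvl2, 0.09 for Csnk1d and 0.06 for Ppp2ca, and none passed (blocked adjusted p of 0.397, 0.235 and 0.412 in limma). Apc and Axin1, the core scaffolds beside Axin2, differed by -0.09 and -0.06, and the kinases Gsk3a and Gsk3b by 0.01 and -0.02. Ppp2r1a and Csnk1a1 had the highest levels per kilobase of this list, with limma adjusted p-values of 0.426 and 0.642.

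Among nuclear partners 20 of 22 genes were tested, with a median of -0.08 and none past the threshold without the block. Cdc73 (chromosome 1), which encodes parafibromin, averaged 1464 ± 80.2 (empty) and 1255 ± 120.0 (Wnt5a), with a limma adjusted p of 0.298, or 0.019 under the block. Less the median of chromosome 1, its log2 contrast of -0.22 came to -0.05 and the blocked adjusted p to 0.543. The coactivator Crebbp averaged 731 ± 138 (empty) and 633 ± 93.8 (Wnt5a), with a limma adjusted p of 0.614, or 0.036 under the block. The co-repressor genes Aes and Ctbp1 were the most abundant per kilobase, with log2 differences of -0.01 and 0.0025.

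At cadherin-catenin junctions, the other site of beta-catenin, none of the 8 tested genes passed the threshold without the block. Their median was -0.11 and all 8 values were below 0, as were 49.3% of all tested genes; the list as a group was not tested. Ctnna2, the neural alpha-catenin, averaged 868 ± 157 (empty) and 701 ± 117 (Wnt5a), with a limma adjusted p of 0.412, or 0.0077 under the block. Ctnnd1, which encodes p120-catenin, differed by -0.15 (limma adjusted p = 0.424). Cdh1, which encodes E-cadherin, was at 7587 ± 219 and 7476 ± 630, and Jup, the plakoglobin gene closest to beta-catenin, at 3550 ± 5.92 and 3438 ± 255. Both had the highest levels per kilobase of the list, at log2 differences of -0.02 and -0.05.

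Of 14 other reported targets 7 were expressed enough to test, with a median of -0.02 and none past the threshold with or without the block. Lgr5, a stem cell marker, averaged 11.6 ± 1.96 (empty) and 19.8 ± 5.17 (Wnt5a), a log2 contrast of 0.71 with a limma unadjusted p of 0.032 and an adjusted p of 0.247. Wif1, a secreted Wnt inhibitor, differed by -0.32 (limma adjusted p = 0.605). Ephb3, an ephrin receptor gene, was at 1603 ± 82.5 and 1583 ± 47.5. Thus Ephb3 and Notum, the most abundant of this list per kilobase, differed by -0.02 and -0.08.

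**Figure D4:**
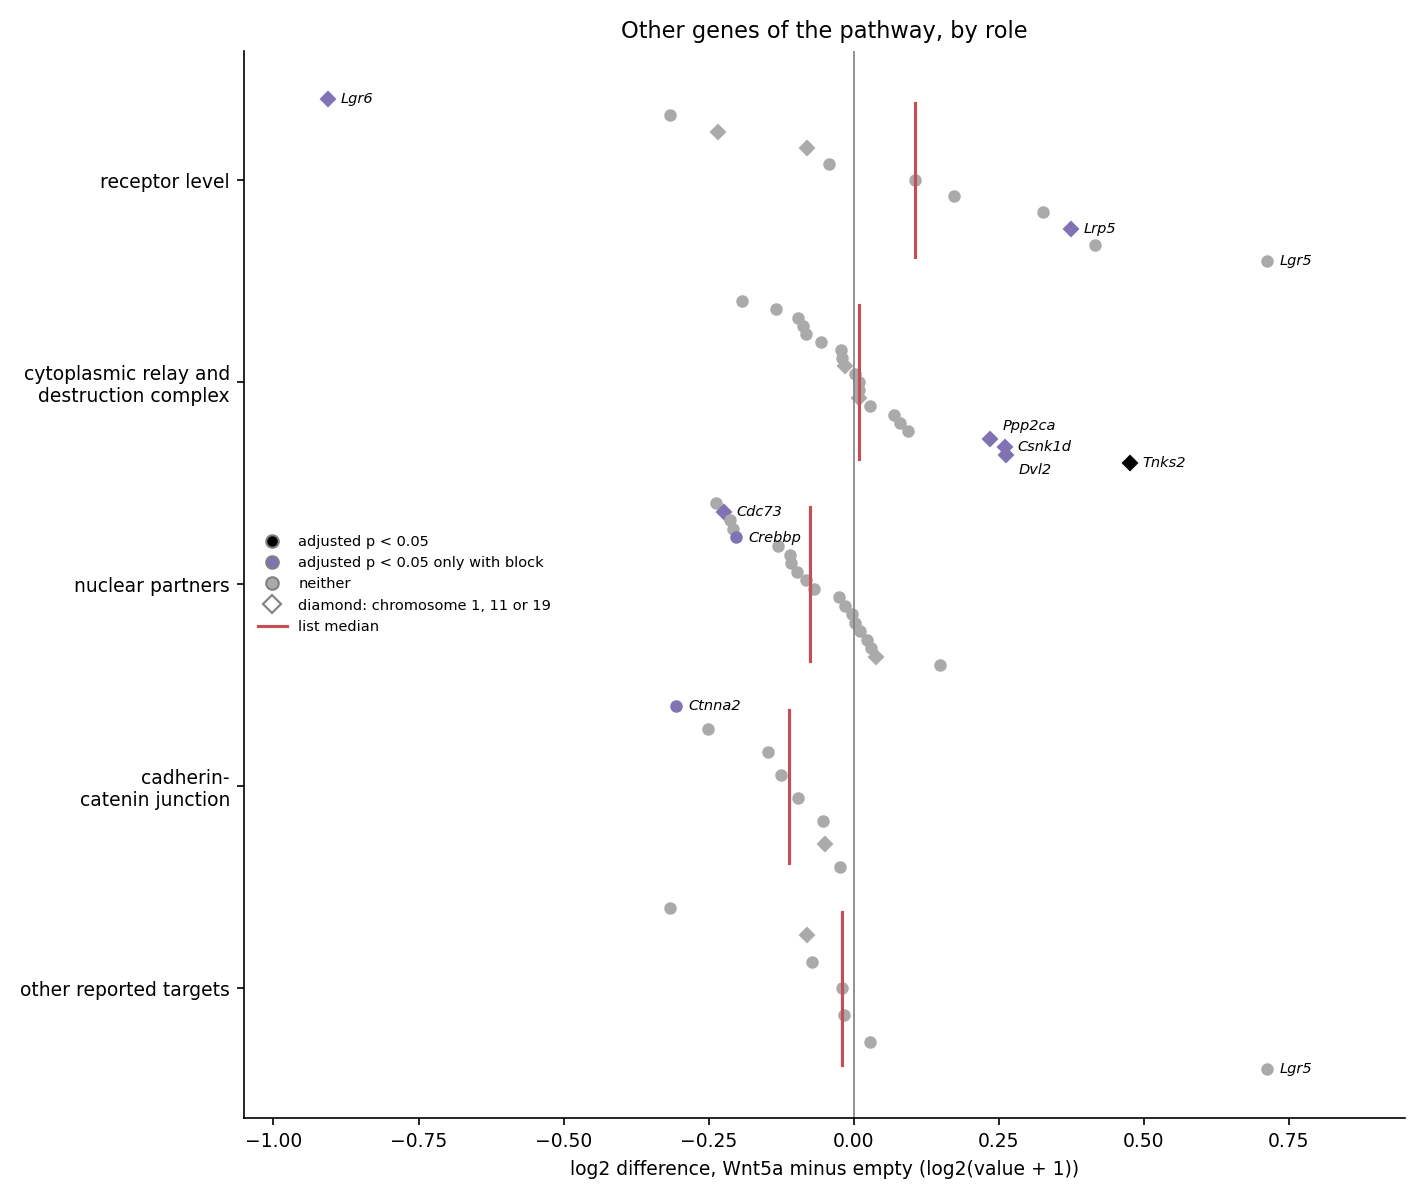
Log2 difference (Wnt5a minus empty) of each tested pathway gene, in 5 lists by role; black marks the gene past limma's adjusted threshold, purple those past it with the block only, diamonds genes on chromosomes 1, 11 or 19, and red bars the list medians. Tnks2 is the 1 black point, and the 5 genes called on the right are all diamonds.

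The genes closest in pattern were sought among 10767 other tested genes, those with a mean value of at least 50. The measure was the root mean square difference of centred log2 values over the 4 libraries. For Ctnnb1 the closest was Gopc (0.0040), and 1902 genes lay within 0.05 of it. For Nkd1, the tested member with the largest difference, they were Trp53bp2 (0.0065) and Nov (0.0093), and 218 genes lay within 0.05. With 4 libraries such likeness describes these values only.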

How the data were processed

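Polyadenylated RNA of 16 samples was sequenced, and per the submitters' processing notes TopHat, Bowtie, HTSeq and DESeq2 were used; versions, build and annotation are not given in the sources used here. The authors deposited 1 normalized signal value per gene and sample. All of these values (100%, within 0.01) were whole multiples of 1 step per file (0.934 to 1.11), so reads were recovered by division. Library pairs were set by an index of dispersion of 0.987 to 1.05 within and 5.23 to 5.44 between sets of 4 samples.

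Genes with a mean value of at least 10 (12357) were compared with limma 3.58.1 (R 4.3.3; eBayes with trend) on log2(value + 1), which understates changes of low genes, with Benjamini-Hochberg adjustment over all genes and a threshold of 0.05. Of the fits, only limma without the block was tested on simulated data, which held no pairing of A and B and no chromosome shifts. The replicate block joins libraries of the same letter, since the labels number samples alike in both groups. Across genes, same-numbered samples correlated at 0.175 to 0.220 in their deviations from group means. Only 1 of 8 empty samples correlated best with its own number, so these values reflect library A against B, not 8 separate pairs. edgeR 4.0.16 (quasi-likelihood test, TMM; 246 genes called) and DESeq2 1.42.0 used recovered reads summed per library. Exact 95% intervals and the floor of 3 reads cover counting error only.

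Members and lists were chosen with earlier results of these data known. Named from each list were genes past the threshold or, with none, the 2 with the smallest p, plus the 2 highest per kilobase. Genes passing with the block only were added after their values were seen. Apc, Axin1, Gsk3a, Gsk3b and Btrc were named outside this rule. One gene that the rule on likeness names is not reported here. Chromosomes came from RefSeq (17620 of 17655 symbols) and lengths from GENCODE M21 (17453). Whether strand was used in counting is not given, so reads of overlapping or antisense genes may be mixed.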

Additional observations from a re-analysis of the deposited data

Results flagged for a closer look

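Among 18 sets of 8 samples (9 genes in each group), 2 held a sample far from the others, both for Tcf7l2. Its normalised read count was 1.02 in empty sample 5 and 0.934 in Wnt5a sample 3, with 0 in the other 7 samples of each group. Each of these values is a single read. For continuous values chance flags about 1 in 20 sets, but that rate does not apply here, since 1 read among samples without a read always stands apart.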

How the results depend on the processing

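Nkd1 and Apcdd1 stayed lower in Wnt5a under each alternative tried, at -0.34 to -0.24 and -0.30 to -0.25, and passed the threshold only with the replicate block (adjusted p of 0.015 and 0.045) and with all 16 samples counted separately. The number of members called was 2 under each of these, 0 in each fit without one library, and 2 with the block after chromosome medians were subtracted, where they were Nkd1 and Znrf3 (limma adjusted p of 0.021 and 0.037) and Apcdd1 was at 0.072. Ctnnb1 turned to -0.0020 with median centring and -0.0084 with quantile normalization. Without one library Axin2 lay between -0.123 and 0.313 (-0.052 without Wnt5a library A), Ctnnb1 between 0.015 and 0.019, and Znrf3 between -0.13 and -0.01. Such fits leave 1 library in a group, assumed to vary like the other group.

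Over all genes 254 were called (171 higher, 83 lower), against 146 without the filter, 102 with a minimum of 50, 158 without trend, 4377 with 16 separate samples, 2095 with the block, 538 with DESeq2, and 138 to 1098 without one library (493 without empty library A, 166 without Wnt5a library A). Subtracting chromosome medians, refits added after the data were examined, gave 206 (117 higher, 89 lower), and 1170 with the block. Pathway genes called were 1, against 0 without trend, 24 with 16 separate samples, 9 with the block, 0 after chromosome medians were subtracted, 6 after that with the block, and 0 to 5 without one library. For none of these shifts was the cause tested. Depth limits Tcf7, Ccnd1, Tcf7l2 and Rnf43, each with at most 67 reads in a group.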

Other observations

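The other D-type cyclins were looked at after the low reads of Ccnd1 were seen. Ccnd3 averaged 188 ± 6.83 (empty) and 169 ± 3.96 (Wnt5a), mean ± SD of 2 libraries. Its log2 contrast of -0.15 had an adjusted p of 0.527 in limma, or 0.200 under the replicate block. Ccnd2 had at most 1.02 in any sample, a single read. Per kilobase of transcript, Ccnd3 was at 48.7 in the empty libraries against 2.39 for Ccnd1.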
